A study of Mus musculus with 3 samples.

Results

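Macrophages of the mouse vomeronasal organ, the paired tube at the base of the nasal septum that senses pheromones, were taken from 3 droplet-based single cell RNA libraries. A kept barcode was counted as a macrophage when C1qa, C1qb and C1qc, the genes of the 3 chains of complement component C1q, together gave at least 5 unique molecular identifiers (UMIs, each a counted RNA molecule) and at least 0.3% of its UMIs. It also had to hold at most 1 UMI of Cd79a, a B cell receptor gene, and fewer than 5 UMIs of vomeronasal receptor genes. This rule gave 1073 macrophages among 13353 kept barcodes, out of 27359 deposited barcodes. All 3 libraries came from male mice on a C57 BL/6J and 129P2/OlaHsd mixed background, and all carried OMPCre, which places Cre recombinase under the promoter of olfactory marker protein, a gene of mature chemosensory neurons. The P10 control was an OMPCre heterozygote at postnatal day 10 with no R26AP2e allele, and held 221 macrophages. The P10 mutant was an OMPCreR26AP2e double heterozygote of the same age, in which Cre turns on ectopic Tfap2e (AP-2e) from the Rosa26 locus, and held 219. The 3-month mutant, a double heterozygote listed as a 3mo adult, held 633, and no adult control library was analysed here. The number of animals pooled for each library was not given in the labels, and the driver is neuronal, so macrophages were not the cells in which the allele was meant to act.

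Macrophages are resident phagocytes that clear dying cells, take up debris and present antigen. In sensory epithelia that replace their neurons through life, they are known for removing neuronal debris and for releasing chemokines, small proteins that attract other leukocytes. Their antigens are shown to helper T cells on major histocompatibility complex (MHC) class II proteins, whose genes are switched on through the coactivator Ciita. Ciita has no DNA contact of its own and acts through factors bound to short promoter elements called the X box and the Y box.

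With 1 library per group, no test between groups was possible, and every interval below covers counting error only, not the spread between cells or animals. At P10 the effect of genotype cannot be told apart from that of the library, nor, between the mutants, that of age from the library or the version of the counting software. Both comparisons use the P10 mutant library, so they are not independent of each other. Levels are counts per 1000000 UMIs (CPM), pooled over all macrophages of a library, with exact Poisson 95% intervals, and ratios of CPM have exact 95% intervals. A gene was counted as past 2-fold at a ratio of at least 2 or at most 0.5 if it had at least 50 UMIs in both libraries together. The median macrophage had 7198, 9994 and 7321 UMIs in the P10 control, the P10 mutant and the 3-month mutant, and the pooled macrophages gave 1897863, 2273099 and 4828806 UMIs. The median mitochondrial share was 4.97%, 4.90% and 2.61%. The libraries shared 21 to 30 barcodes pairwise, and 0 of them were macrophages in both.

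The C1q genes chose the cells, so their levels are given as a description. The median macrophage held 91, 119 and 114 C1q UMIs in the P10 control, the P10 mutant and the 3-month mutant, or 1.31%, 1.39% and 1.69% of its UMIs. Just inside the count limit, 17, 6 and 23 macrophages had 5 to 9 C1q UMIs, and just outside it 70, 40 and 142 kept barcodes had 2 to 4. Just inside the share limit, 36, 23 and 47 macrophages lay between 0.3% and 0.6%, while 32, 29 and 46 barcodes with at least 5 C1q UMIs lay under 0.3%.

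The macrophage name held up against markers that the rule did not use, although, as genes of the same cells, they are no independent test. Ms4a7, a membrane protein gene of tissue macrophages, stood at 1181, 1110 and 1677 CPM in the P10 control, P10 mutant and 3-month mutant macrophages, against 3.48, 3.07 and 6.22 CPM in the other kept barcodes. Aif1, which encodes the actin-binding protein IBA1, stood at 1137, 1078 and 1321 CPM. Both markers were therefore abundant in all 3 libraries. With each cell thinned to 2000 UMIs, which left out 42, 31 and 125 shallower macrophages, 85.5%, 85.1% and 90.4% of macrophages held an Aif1 UMI. Without thinning these shares were 91.4%, 94.98% and 96.4%. In fibroblasts, chosen by collagen type I UMIs and expected to lack Aif1, the thinned share was 0.726%, 0.326% and 0.591%, with median depths of 8408.5, 10350 and 9872 UMIs. Pf4, a platelet factor that resident macrophages also make, was less uniform, at 1159, 626 and 608 CPM. The 20 genes highest in control macrophages over the other barcodes held further macrophage genes, among them Trem2, a lipid-sensing receptor, C3ar1, the receptor for a complement fragment, and Cx3cr1, as well as Psca, an epithelial surface protein gene with 99.7% of its 322 UMIs in 1 cell. The 16 genes of a macrophage identity list, which holds the colony-stimulating factor receptor Csf1r, the transcription factor Spi1 and the adhesion receptor Adgre1, summed to 17101, 17391 and 20738 CPM, and 0 of 16 were past 2-fold in either comparison.

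The promoters of the MHC class II genes are shown because, of the macrophage gene lists, theirs had the highest ratio between the mutant libraries. RefSeq sequences (GRCm38.p6) were found for 3 of the 4 genes asked for, H2-Ab1 being the other. The 120 bases that end just before the start site are printed 5′ to 3′ on the gene's strand, and capitals mark the Y box (GATTGG, or CCAATC on the opposite strand) and the X box, which were searched for on both strands and do not overlap here.
H2-Aa, chr17:34287824-34287943, minus strand: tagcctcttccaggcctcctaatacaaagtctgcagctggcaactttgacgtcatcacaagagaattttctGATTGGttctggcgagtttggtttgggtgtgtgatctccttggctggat
H2-Eb1, chr17:34305747-34305866, plus strand: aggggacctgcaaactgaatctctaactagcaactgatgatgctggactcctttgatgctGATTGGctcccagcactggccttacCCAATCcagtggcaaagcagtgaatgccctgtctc
H2-DMb1, chr17:34153071-34153190, plus strand: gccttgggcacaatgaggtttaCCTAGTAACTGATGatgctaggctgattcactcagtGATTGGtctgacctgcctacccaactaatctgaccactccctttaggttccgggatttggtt
A Y box began 49 bases before the start of H2-Aa, 60 and 35 bases before that of H2-Eb1 and 62 bases before that of H2-DMb1. Of 32851 mouse promoters in the same table, 9.67% held a Y box in these 120 bases. The X box, searched as a single pattern of 14 letters, matched in H2-DMb1, 98 bases before the start, and in 0.0365% of all promoters. A site that departs from this pattern by a letter is left unmarked. The lack of capitals therefore does not show that H2-Aa or H2-Eb1 has no X box. These matches describe letters in the window and do not show binding.

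Macrophages made up 5.13% (exact 95% interval 4.49 to 5.83) of the kept barcodes of the P10 control, 5.85% (5.12 to 6.66) in its mutant and 11.9% (11.1 to 12.8) at 3 months. The intervals of the P10 libraries overlapped, and that of the 3-month library lay above both. The sorting of barcodes by quality bears on these shares, since a further 48, 98 and 50 barcodes met the C1q rule but exceeded the mitochondrial limit of 10%. Dissociation and freezing also set which cells enter a library, and their part in the shares was not tested.

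At P10, the macrophage gene list with the highest ratio of mutant over control was that of the chemokines, and the one with the lowest was that of resident scavenger genes. Few genes of either list were past 2-fold, and lists of other cell types, given after them, were further from 1. The 17 measured genes of the C-C and C-X-C chemokine list summed to 7073 CPM (6954 to 7193) in the control and 10446 CPM (10313 to 10579) in the mutant, a ratio of 1.48 (1.45 to 1.51). Most of that difference came from Ccl3 and Ccl4, inflammatory chemokines that draw in leukocytes. Over all 7059 genes compared, 90 were past 2-fold higher (1.27%) and 104 past 2-fold lower (1.47%), with a median log2 ratio of −0.03.

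Among the chemokines, 1 of 14 compared was past 2-fold higher, against 1.27% of all genes, and 0 were past 2-fold lower. The median log2 ratio of the list was 0.29. Ccl4 stood at 2351 CPM in the control and 4036 CPM in the mutant, a ratio of 1.72 (1.66 to 1.78). Ccl3 stood at 1113 and 2073 CPM, a ratio of 1.86 (1.77 to 1.96). The share of thinned macrophages with a Ccl4 UMI was 48.0% in the control and 71.3% in the mutant, beside 1.02% and 1.14% of fibroblasts, so more cells held the transcript. Cxcl10, an interferon-induced ligand of CXCR3, stood at 149 and 292 CPM, a ratio of 1.97 (1.71 to 2.27). The monocyte attractants Ccl2 and Ccl12 had the same ratio of 1.43. Ccl7, of the same group, had a ratio of 0.987 (0.889 to 1.10), which its counting interval did not separate from 1, but it was 2.12 without macrophages that held other cells' markers, 1.70 thinned and 0.789 at a mitochondrial limit of 5%. The gene past 2-fold was Ccl5, which draws T cells, at 80.6 and 213 CPM, but 71.3% of its UMIs in the mutant were in 1 cell. Cxcl9, a ligand of CXCR3 that is not in the list, gave 0 UMIs in the control and 55 in the mutant, at least 15.3-fold higher against a floor of 3 counts, with 63.6% of the 55 in 1 cell.

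The inflammatory cytokine list had a ratio of 1.23 (1.196 to 1.26) and a median log2 ratio of 0.29. Of its 13 genes compared, 2 were past 2-fold higher, against 1.27% of all genes, and 1 was lower, against 1.47%. Il1b, the gene of interleukin 1 beta and the most abundant member of the list, stood at 2116 and 2589 CPM, a ratio of 1.22 (1.18 to 1.27). Il1rn, which encodes the antagonist of the same receptor, stood at 62.2 and 134 CPM, a ratio of 2.16 (1.74 to 2.69). Ptgs2, the inducible enzyme of prostaglandin synthesis, had a ratio of 2.07 (1.61 to 2.67). The agonist and its antagonist were thus both higher in the mutant library. The lower gene, the anti-inflammatory cytokine Il10, went from 21.1 to 6.60 CPM, with 65.0% of the control's UMIs in 1 cell. Of the 20 immediate early and heat shock genes, which are readily induced during tissue dissociation, 0 were past 2-fold, and their summed ratio was 1.23 (1.21 to 1.25). That value moved with the chemokines and cytokines, and its part in them was not tested.

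The resident scavenger list holds genes of macrophages that settle in tissue and take up debris. It summed to 1432 CPM (1378 to 1486) in the control and 1045 CPM (1003 to 1088) in the mutant, a ratio of 0.730 (0.690 to 0.771). The sum was not higher in macrophages than in the other kept barcodes, which stood at 1535 and 1353 CPM. The part of other cells' RNA in this list was not tested. Of its 10 genes compared, 2 were past 2-fold lower, against 1.47% of all genes, 0 were past 2-fold higher, and the median log2 ratio was −0.66. Clec10a, a galactose-binding lectin, stood at 30.6 and 10.6 CPM, a ratio of 0.346 (0.205 to 0.565). Folr2, the folate receptor beta found on long-lived resident macrophages, stood at 40.1 and 17.6 CPM, a ratio of 0.439 (0.292 to 0.653). Thinned to equal depth, 6.70% of control and 6.38% of mutant macrophages held a Folr2 UMI, so the share of cells with it was close where the pooled level was not. Its ratio was likewise 0.952 by the mean over cells and 0.873 thinned, and that of Clec10a was 0.635 thinned, so neither was past 2-fold there. Mrc1, the mannose receptor, had a ratio of 0.657 (0.584 to 0.738), and Gas6, a bridging ligand that ties dying cells to their receptors, had 0.610 (0.504 to 0.738). F13a1, the A chain of clotting factor XIII, had 0.514 (0.370 to 0.708), and 0.881 by the mean over cells. Cbr2, a carbonyl reductase, had a ratio of 1.04 (0.895 to 1.21), but it was 0.394 with the stricter C1q limits, 0.503 by the mean over cells, 0.603 thinned and 1.43 at a mitochondrial limit of 5%. The summed scavenger ratio was 0.752 (0.692 to 0.816) in dendritic cells chosen by a marker rule, close to that of the macrophages.

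The rule that took the genes with the interval bound farthest from 1 named 10 genes in each direction at P10. Higher in the mutant were, beside Ccl3, Ccl4, Cxcl10 and Il1rn, Ass1, the enzyme that joins citrulline and aspartate on the way to arginine, with 14.8 and 52.8 CPM and a ratio of 3.58 (2.36 to 5.61). Gpr84, a receptor for medium-chain fatty acids, stood at 32.1 and 88.4 CPM, a ratio of 2.75 (2.06 to 3.73). Rsad2, which encodes the antiviral enzyme viperin, stood at 79.0 and 170 CPM, a ratio of 2.15 (1.78 to 2.62). Slfn9, Pik3r5 and Dusp2 completed this group, with ratios of 2.81, 2.42 and 1.82. Of 19 interferon response genes compared, 1 was past 2-fold higher, Rsad2, against 1.27% of all genes. The list's summed ratio was 0.978 (0.958 to 0.998). The interferon-induced genes Ifi44 and Ifi44l had ratios of 0.567 and 0.439 in the other direction. Lower, beside these, Clec10a, Folr2, F13a1 and Gas6, were Pf4 with a ratio of 0.540 (0.505 to 0.577), Smagp with 0.524, Cela1 with 0.467 and Ftl1-ps1 with 0.665. Ftl1-ps1 is a pseudogene nearly identical to the ferritin light chain gene Ftl1, which itself had a ratio of 1.09, and the counting can split reads between them.

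Markers of other cell types moved with these values. The summed neutrophil list stood at 929 CPM in control macrophages and 136 CPM in mutant macrophages, gland secretion genes at 701 and 147 CPM, vomeronasal neuron genes at 340 and 151 CPM, and sustentacular and epithelial genes at 781 and 341 CPM. Fibroblast and bone genes stood at 947 and 1077 CPM. These are pooled levels, and the median macrophage held 83.8 CPM of the neutrophil list in the control and 73.4 CPM in the mutant. Macrophages with at least 3 UMIs of T cell, collagen, epithelial, neuronal or endothelial markers, or with at least 1% of neutrophil UMIs, numbered 110 of the control's 221 and 74 of the mutant's 219. Without them the counts past 2-fold were 38 higher and 19 lower, among the genes that still had at least 50 UMIs. The summed chemokine ratio was then 1.51 and the scavenger ratio 0.854. Ccl3 and Il1rn stood at 1.98 and 2.09, Ccl4 at 1.47, Ass1 at 1.71 and Gpr84 at 1.55, while Folr2 was at 0.885, Pf4 at 0.797 and Clec10a at 0.194. Ccl5 went to 0.907 and the neutrophil list to 1.02, each on the other side of 1. The P10 chemokine ratio was therefore as large without these cells, while those of Folr2 and Pf4 lay nearer to 1.

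**Figure D1:**
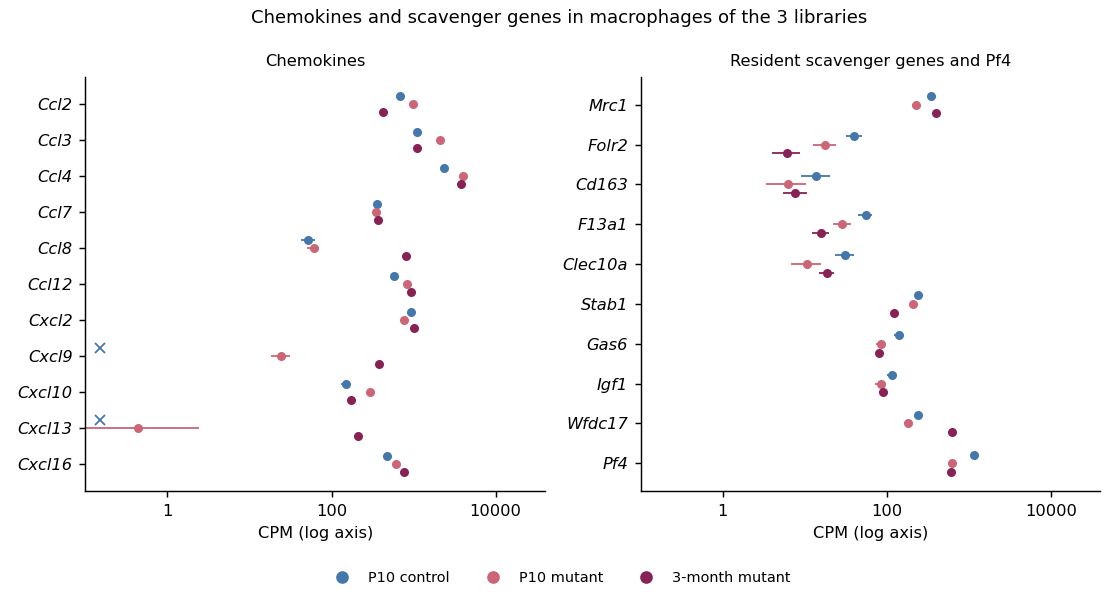
Pooled level (CPM, log axis) of chemokines and resident scavenger genes in macrophages of the P10 control, P10 mutant and 3-month mutant libraries, with bars for exact Poisson 95% intervals and a cross at the left edge for 0 UMIs. Ccl3 and Ccl4 lie higher in the P10 mutant (2073 and 4036 CPM) than in the control (1113 and 2351 CPM), and Folr2 and Clec10a lie lower.

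Pooled over all macrophages, the sums of the other lists given here differed little between the P10 libraries. For MHC class II the direction depended on the cells taken. MHC class II genes summed to 8895 and 9859 CPM, a ratio of 1.11 (1.09 to 1.13), with 0 of 7 past 2-fold, and this ratio was 0.735 without the macrophages that held other cells' markers. MHC class I genes had a ratio of 0.901 (0.882 to 0.921), and 0 of 10 were past 2-fold. The cell cycle list had 0.990 (0.947 to 1.03), with 0 of 20 past 2-fold. Lipid and lysosome genes, such as Apoe, the lipid carrier, and the cathepsins, had 1.01 (0.999 to 1.02), with 0 of 17 past 2-fold. Efferocytosis receptors, which bind dying cells, had 0.972 (0.917 to 1.03), with 0 of 11 past 2-fold, and complement genes had 1.13 (1.06 to 1.21), with 0 of 9. Monocyte genes had a ratio of 0.966 (0.909 to 1.03), with 0 of 7 past 2-fold. Over all genes compared, 1.27% were past 2-fold higher and 1.47% lower, the background for every count in this paragraph. Of 8 microglia list genes, 1 was past 2-fold higher, Sparc, a matrix protein gene that fibroblasts also express. Its ratio was 2.37 (2.03 to 2.77), and 1.46 thinned. In the growth factor list, 1 of 14 was past 2-fold higher, Hgf, hepatocyte growth factor, at 2.12 (1.14 to 4.14). Transcripts of Tfap2e itself numbered 5 UMIs in control macrophages and 28 in mutant macrophages, or 2.64 and 12.3 CPM, beside 9.93 and 168 CPM in the other kept barcodes.

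**Figure D2:**
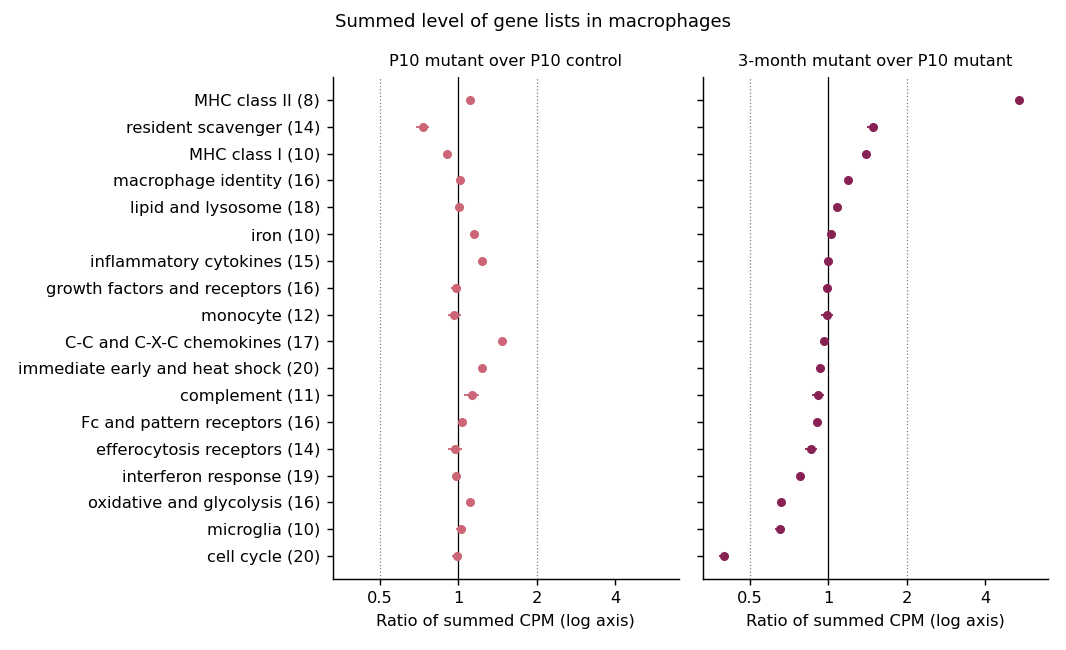
Ratio of summed CPM (log axis) of each macrophage gene list, with exact 95% intervals, for the P10 mutant over the P10 control and the 3-month mutant over the P10 mutant. At P10 the chemokines lie highest at 1.48 and the resident scavenger genes lowest at 0.730, and between the mutants MHC class II lies at 5.40 and the cell cycle at 0.400.

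Between the mutant libraries, macrophages of the 3-month library had more MHC class II RNA and less RNA of cell cycle genes, and a few chemokines differed. The class II list of 8 genes summed to 9859 CPM (9730 to 9989) in the P10 mutant and 53273 CPM (53067 to 53479) in the 3-month mutant, a ratio of 5.40 (5.33 to 5.48). The cell cycle list went from 1903 to 762 CPM, a ratio of 0.400 (0.383 to 0.418). Over 8397 genes compared, 305 were past 2-fold higher (3.63%) and 433 past 2-fold lower (5.16%), with a median log2 ratio of −0.13. The libraries were counted with different software versions, and Gm42418, an RNA that overlaps ribosomal repeat sequence, stood at 1707 and 38250 CPM in macrophages and 1763 and 37260 CPM in the other kept barcodes. With it and the mitochondrial and ribosomal genes left out of the scaling, 67 of 67 named or listed genes that were past 2-fold remained so. Such rescaling moves every ratio by the same factor, here a small one, with the class II ratio at 5.39. It cannot show whether the software version altered single genes, which was not tested.

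Of the 8 class II genes, 7 were past 2-fold higher, against 3.63% of all genes, and the median log2 ratio was 2.28. H2-Ab1, the beta chain of the I-A molecule (chr17:34257689-34269419, mm10), stood at 1295, 1472 and 10622 CPM in the P10 control, P10 mutant and 3-month mutant, a ratio between the mutants of 7.22 (6.97 to 7.48). H2-Aa, its alpha chain, stood at 1389, 1580 and 9244 CPM, a ratio of 5.85 (5.66 to 6.06). H2-Eb1, the beta chain of I-E, stood at 1405, 1584 and 10287 CPM, a ratio of 6.496 (6.28 to 6.72). The P10 libraries were close for all these chains and the 3-month library was well above both. Cd74, the invariant chain that holds the groove until peptide is loaded, had a ratio of 4.57 (4.48 to 4.66). H2-DMa and H2-DMb1, the chains of the peptide exchanger, had 2.34 (2.11 to 2.60) and 2.89 (2.60 to 3.21). Ciita, the coactivator of these promoters, stood at 11.6, 14.1 and 73.1 CPM, a ratio of 5.19 (3.61 to 7.71). H2-DMb2 was the exception, at 1.55 (0.888 to 2.85), and at 0.370 thinned. Of thinned macrophages, 28.5%, 31.9% and 96.5% held an H2-Ab1 UMI, beside 4.06%, 5.05% and 11.6% of fibroblasts.

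Within single macrophages, Cd74, H2-Aa, H2-Ab1 and H2-Eb1 together took a median of 0.0588% of UMIs in the P10 control, 0.0583% in its mutant and 4.99% at 3 months. The highest macrophages held 7.63%, 6.83% and 14.0%, so the ranges overlapped at the top. At the bottom, 48 and 52 macrophages of the P10 libraries held 0 of these UMIs, and 0 did in the 3-month library. Macrophages with at least 1% numbered 35 in the P10 control, or 15.8% (11.3 to 21.3), 47 in its mutant, or 21.5% (16.2 to 27.5), and 553 at 3 months, or 87.4% (84.5 to 89.9). This is a range and not a cell type, and 7, 6 and 30 macrophages lay near the limit, between 0.8% and 1.2%. The class II-high macrophages were the deeper ones, with a median of 12691, 12808 and 7653 UMIs in the 3 libraries against 6182, 8461.5 and 3725.5 in the others.

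**Figure D3:**
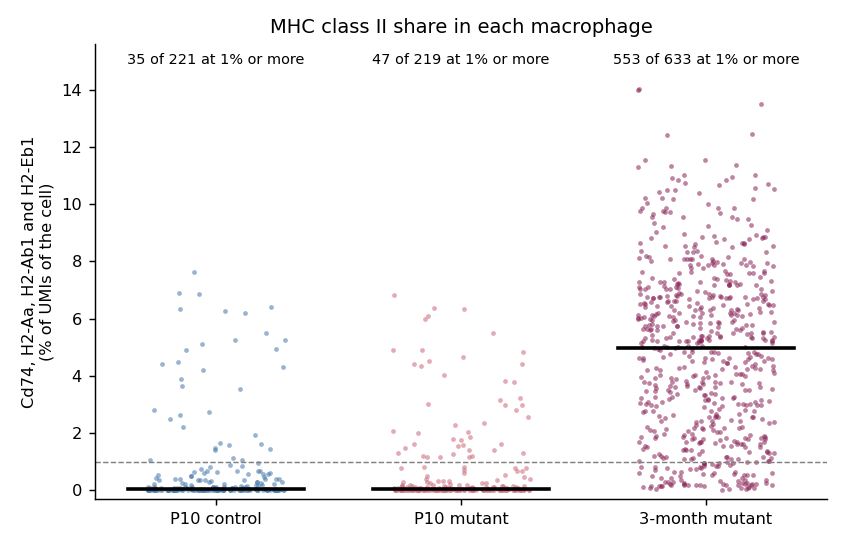
Share of each macrophage's UMIs (percent) from Cd74, H2-Aa, H2-Ab1 and H2-Eb1 in the 3 libraries, 1 point a cell, with the limit of 1% for class II-high macrophages. The medians are 0.0588%, 0.0583% and 4.99%, in the order control, mutant and 3-month mutant.

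Within the class II-high macrophages the summed ratio of the 3-month over the P10 mutant was 1.98, and within the others it was 3.78, against 5.40 over all. The cells were divided by their class II level itself, so both values are narrowed by construction and do not divide the difference into parts.

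Class II-high macrophages differed from the others in the same library in other genes too. Ccr2, the receptor that draws monocytes from blood, stood at 305 against 80.0 CPM in the P10 control, 234 against 93.2 CPM in its mutant and 191 against 4.39 CPM at 3 months, where the others held 2 UMIs. The summed monocyte list was 2.56, 2.25 and 3.00 times as high in the class II-high macrophages. The summed resident scavenger list lay on the other side, at 0.421, 0.578 and 0.420 times. Mrc1 was 0.120, 0.170 and 0.329 times as high, and Pf4 0.207, 0.116 and 0.232 times. Folr2 gave 0 UMIs in class II-high macrophages of both P10 libraries, against 76 and 40 UMIs in the others, which counting error allows to be at most 0.180 and 0.219 times their level, and 9 against 20 UMIs at 3 months. Cbr2 did not share this direction throughout, at 0.180, 1.88 (1.53 to 2.30) and 0.357 times, and Lyve1, a hyaluronan receptor, gave 0 against 3 UMIs in each P10 library and 11 against 0 at 3 months. Cx3cr1, the fractalkine receptor of resident macrophages, went from ratios of 0.572 and 0.367 at P10 to 1.11 (0.990 to 1.25) at 3 months. Il1b stood at ratios of 1.14, 0.617 and 2.47. The summed P10 chemokine ratio was 1.11 within the class II-high macrophages and 1.65 within the others, where Ccl3 had a ratio of 2.16 and Ccl4 of 2.11. Single chemokines did not all follow the sum, since Ccl2 and Ccl12 had P10 ratios of 3.77 and 4.01 within the class II-high macrophages and 1.43 and 1.50 within the others. The scavenger ratio at P10 was 1.01 within the class II-high macrophages and 0.733 within the others. At 3 months the 80 macrophages below the limit also carried 36029 CPM of gland secretion RNA, against 4021 CPM in the class II-high ones, and its part in their values was not tested.

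Class I genes, which every nucleated cell uses to show its own peptides, summed to 7751 and 10804 CPM in the mutants. Their ratio was 1.39 (1.37 to 1.42), and 2 of 10 were past 2-fold higher, against 3.63% of all genes. The 2 were the nonclassical genes H2-Q7 at 2.25 (2.00 to 2.54) and H2-T23 at 2.40 (2.21 to 2.62). The classical genes H2-K1 and H2-D1 had 1.49 and 1.48. H2-M2, another nonclassical gene, was among the 10 higher named genes, with 0, 8 and 452 UMIs in the P10 control, P10 mutant and 3-month mutant, and a ratio between the mutants of 26.6 (13.4 to 62.0). Of 19 interferon response genes, 0 were past 2-fold, and the list had a ratio of 0.781 (0.768 to 0.795). Irf7, a transcription factor of the interferon response, stood lower, at 0.635 (0.588 to 0.685). Fcgr4, an activating Fc receptor, was the 1 of 14 Fc and pattern receptor genes past 2-fold, at 2.34 (2.01 to 2.74).

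**Figure D4:**
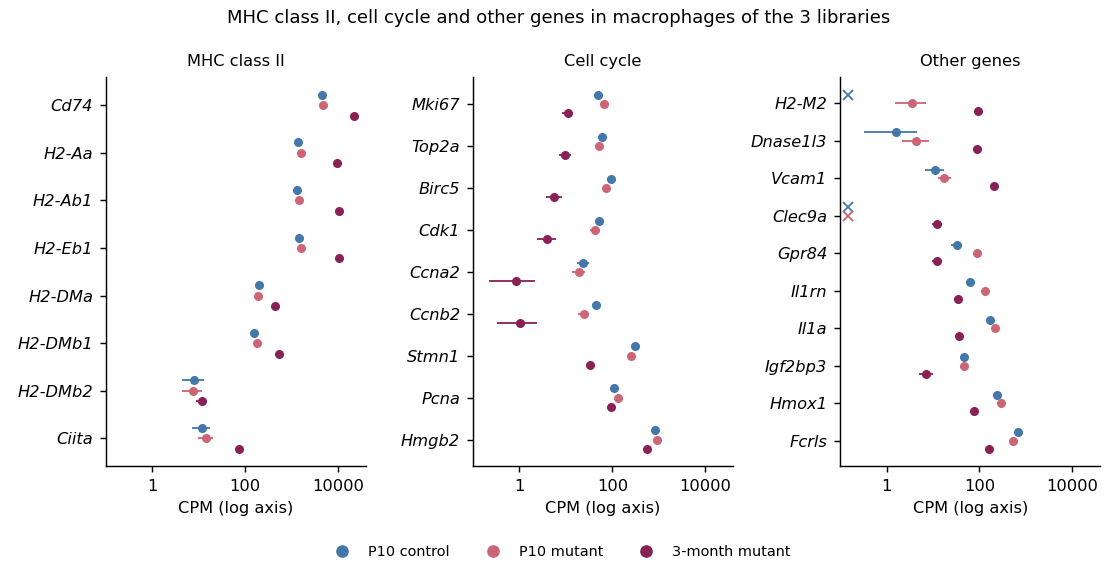
Pooled level (CPM, log axis) of MHC class II genes, cell cycle genes and other named genes in macrophages of the 3 libraries, with exact Poisson 95% intervals and a cross at the left edge for 0 UMIs. The class II genes lie close in the P10 libraries and higher in the 3-month library (H2-Ab1 at 1295, 1472 and 10622 CPM), while cell cycle genes such as Mki67 lie lower there (49.5, 65.1 and 11.0 CPM).

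Cell cycle genes lay lower in the 3-month library almost throughout. Of 17 compared, 15 were past 2-fold lower, against 5.16% of all genes, 0 were past 2-fold higher, and the median log2 ratio was −2.57. Mki67, the proliferation antigen Ki-67, stood at 49.5, 65.1 and 11.0 CPM in the P10 control, P10 mutant and 3-month mutant. Top2a, the topoisomerase of dividing cells, stood at 60.6, 51.5 and 9.73 CPM. Birc5, the mitotic regulator survivin, stood at 91.7, 71.7 and 5.59 CPM, a ratio between the mutants of 0.0780 (0.0499 to 0.118). All 3 were lower at 3 months than in either P10 library. The exceptions were Pcna, the sliding clamp of DNA replication, at 0.697 and Hmgb2, a chromatin protein, at 0.588. With thinning, 6.70%, 5.85% and 2.17% of macrophages held a Mki67 UMI, beside 2.32%, 3.26% and 0.394% of fibroblasts. Stmn1, at 306, 254 and 32.7 CPM, is also a neuronal gene, and neuron markers went from 340 to 151 and 17.0 CPM in macrophages.

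The chemokine sum was close in the mutants, at 10446 and 10039 CPM, a ratio of 0.961 (0.946 to 0.976). Of 15 chemokines compared, 2 were past 2-fold higher, against 3.63% of all genes, 1 was lower, against 5.16%, and 12 were neither. Ccl8, a ligand that attracts monocytes and T cells, stood at 52.2, 60.3 and 804 CPM, a ratio between the mutants of 13.3 (11.3 to 15.9), and was found in 17, 21 and 207 macrophages. In the P10 mutant, 48.2% of its UMIs were in 1 cell, and without the highest cell of each library the ratio was 24.2. Ccl6 had a ratio of 3.72 (2.99 to 4.67), and Ccl2, the main monocyte attractant, had 0.429 (0.403 to 0.455). Ccl3 stood at 0.530 (0.510 to 0.552) and Ccl4 at 0.948 (0.924 to 0.972). Of the pair that was higher in the P10 mutant, Ccl3 in the 3-month mutant was near its level in the P10 control and Ccl4 was not. The pooled ratios cover unlike directions. Within the class II-high macrophages Ccl3 had 1.57 (1.43 to 1.73) and Ccl4 1.64 (1.56 to 1.73). Within the others they had 0.439 (0.401 to 0.481) and 0.665 (0.628 to 0.704).

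The named genes added 2 further chemokines, both with 0 UMIs in the P10 control. Cxcl13, which attracts B cells to lymphoid follicles, gave 0, 1 and 1014 UMIs, the last in 38 macrophages with 20.2% in the highest of them, and the ratio against that single UMI was 477 (85.5 to 18872). Cxcl9, a ligand of CXCR3 induced by interferon gamma, gave 0, 55 and 1818 UMIs, a ratio of 15.56 (11.9 to 20.7), and without the highest cell of each library the ratio was 35.6. Neither was spread over all macrophages, since Cxcl9 was found in 102 of 633. Vcam1, an adhesion ligand for leukocyte integrins, stood at 11.1, 17.6 and 208 CPM, a ratio of 11.8 (8.598 to 16.6), and of 22.9 without the highest cell of each library. Dnase1l3, an enzyme that degrades extracellular DNA, stood at 1.58, 4.399 and 86.6 CPM, a ratio of 19.7 (10.6 to 41.3). Clec9a, a dendritic cell receptor for dead cells, gave 0, 0 and 60 UMIs over 46 macrophages, at least 9.42-fold higher against a floor of 3 counts. The summed dendritic cell list stood at 26.9, 26.8 and 46.2 CPM, with Flt3 at 1, 4 and 17 UMIs, Zbtb46 at 4, 4 and 3 and Cd209a at 0, 0 and 35, and its part in the class II values was not tested.

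The inflammatory cytokine list had a ratio of 0.996 (0.976 to 1.02) between the mutants, and 2 of its genes were among the 10 lower named ones. Il1a, interleukin 1 alpha, stood at 169, 214 and 36.7 CPM, a ratio between the mutants of 0.171 (0.143 to 0.204), and Il1rn at 0.252 (0.207 to 0.305). Il1b moved the other way, at 1.32 (1.28 to 1.36). Of 14 cytokine genes, 1 was past 2-fold higher, Il10, at 6.60 and 15.3 CPM, and 2 were lower. Over all genes compared, 3.63% were past 2-fold higher and 5.16% lower. The other named genes that were lower have varied roles. Gpr84 had a ratio of 0.138 (0.102 to 0.186) and Igf2bp3, a fetal RNA-binding protein, 0.1496 (0.0986 to 0.222). Hmox1, which degrades haem, stood at 243, 295 and 76.0 CPM, a ratio of 0.258 (0.226 to 0.293), and Slc40a1, the iron exporter, had 0.399 (0.268 to 0.592), the 2 of 9 iron genes past 2-fold lower. Fcrls, a marker of microglia and related cells, had 0.3002 (0.274 to 0.329). Ifi44l gave 95, 50 and 0 UMIs, at least 35.4-fold lower, and it was also at 0 in the other kept barcodes of the 3-month library. Ftl1-ps1 had a ratio of 0.0303, and the uncertainty over Ftl1 holds here as well. Tagap1 and Gm17494 completed the group, with 0.143 and 0.178.

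The resident scavenger list was higher in the 3-month mutant than in the P10 mutant, at 1547 and 1045 CPM, a ratio of 1.48 (1.41 to 1.55). In the other kept barcodes it stood at 1700 and 1353 CPM, above the macrophages of each library. Pooled over all macrophages, the genes of the list did not share a direction. Of 11 compared, 1 was past 2-fold higher and 1 lower, against 3.63% and 5.16% of all genes, and the median log2 ratio was 0.09. Wfdc17, a secreted protease inhibitor gene, stood at 239, 179 and 612 CPM, a ratio between the mutants of 3.43 (3.09 to 3.81). Folr2 stood at 40.1, 17.6 and 6.01 CPM, a ratio of 0.341 (0.204 to 0.564), but of 0.870 at a mitochondrial limit of 5%. Below the class II limit its ratio was 1.73 (0.958 to 3.03), and class II-high macrophages held 0 and 9 UMIs in the mutants. The list's ratio was 1.98 (1.80 to 2.17) within the class II-high macrophages and 2.71 (2.53 to 2.91) within the others. Mrc1 had 6.37 and 3.29 there, and Cbr2 0.615 and 3.24. Over all macrophages Mrc1 had 1.73 (1.57 to 1.91) and Stab1, a scavenger receptor, 0.587 (0.519 to 0.664). Wfdc17 and Mrc1 had the widest differences in level toward the 3-month mutant.

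In the lipid and lysosome list the sum was close, at 1.08 (1.07 to 1.09), with 2 of 18 genes past 2-fold higher and 2 lower. Over all genes compared, 3.63% were past 2-fold higher and 5.16% lower, the background for every count in this paragraph. Lipa, the lysosomal acid lipase, had 2.62 (2.19 to 3.16). Gpnmb, a glycoprotein of lipid-loaded macrophages, had 3.84 (2.51 to 6.15), with 45.4% of its UMIs in 1 cell, and 1.42 without the deepest macrophages. Spp1, osteopontin, stood at 225, 442 and 31.7 CPM, a ratio of 0.0717 (0.0601 to 0.0850), beside 2749, 2167 and 338 CPM in the other kept barcodes. Ctsl, cathepsin L, had 0.459 (0.424 to 0.496). In the complement list, 3 of 9 genes were past 2-fold higher, C4b at 5.36 (3.87 to 7.60), C3 at 2.39 (1.77 to 3.27) and the complement receptor subunit Itgax at 2.25 (1.77 to 2.88), and 1 was lower, Cfb at 0.449 (0.388 to 0.519). Of 14 glycolysis and oxidative genes, 3 were past 2-fold lower, Eno1 at 0.460, Pgk1 at 0.445 and Pfkl at 0.375, and the list had a ratio of 0.658 (0.641 to 0.676). Of the 20 immediate early and heat shock genes, 3 were past 2-fold lower, all heat shock genes, with Hspa1a at 0.326, Hspa1b at 0.205 and Hsph1 at 0.284, while Fos, the immediate early factor, was at 1.25.

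Other cell types' RNA also differed between the mutant libraries. Gland secretion genes went from 147 to 7044 CPM in macrophages, beside 5201 and 25467 CPM in the other kept barcodes. The B cell list went from 265 to 864 CPM, with Pax5, a defining B cell gene, at 0 in all 3 libraries, and fibroblast and bone genes went from 1077 to 83.7 CPM. The class II ratio was 6.73 and the cell cycle ratio 0.445 without macrophages that held other cells' markers. Those left out numbered 54 in the 3-month mutant and 74 in the P10 mutant. The markers did not include gland secretion or B cell genes, so the part of that RNA in these ratios was not tested.

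The class II difference was compared with that in other leukocytes and in fibroblasts, chosen among the other kept barcodes by simple marker rules. These rules were set after the values were seen, and no test of the differences was possible. Dendritic cells, whose rule itself asks for class II UMIs, held 52845 CPM of the class II list in the P10 mutant and 47224 CPM in the 3-month mutant, a ratio of 0.894 (0.886 to 0.902). The ratio was 1.50 (1.43 to 1.57) in B cells, 1.69 (1.56 to 1.83) in neutrophils and 1.07 (1.02 to 1.12) in fibroblasts. All were under the 5.40 of macrophages. The barcodes taken as B cells differed between the mutants in cell cycle genes, at 8611 and 322 CPM, and in median depth, at 10013 and 21691 UMIs. Their class II sum was low, at 1517 and 2273 CPM, and they may not be like cells at both ages. The macrophages of the 3-month mutant stood at 53273 CPM, near the dendritic cells. Class I genes had a ratio over 1 in all of them, at 1.29 (1.26 to 1.32) in dendritic cells, 1.39 in macrophages, 1.97 (1.89 to 2.05) in B cells, 2.15 (2.08 to 2.22) in neutrophils and 7.61 (7.42 to 7.81) in fibroblasts. The interferon list was at 0.781 in macrophages, 0.957 (0.934 to 0.981) in dendritic cells and at 2.89 in fibroblasts, 3.73 in B cells and 4.05 in neutrophils. Cell cycle genes were lower at 3 months in all of them, from 0.0374 in B cells to 0.760 in dendritic cells. The P10 chemokine ratio was 1.48 in macrophages, 1.41 in fibroblasts, 1.14 in dendritic cells, 0.656 in neutrophils and 6.82 (5.09 to 9.32) in B cells, where the level was 43.7 and 298 CPM. The scavenger ratio at P10 was 0.730 in macrophages and 0.752 in dendritic cells, and between 1.04 and 1.32 in the other populations.

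**Figure D5:**
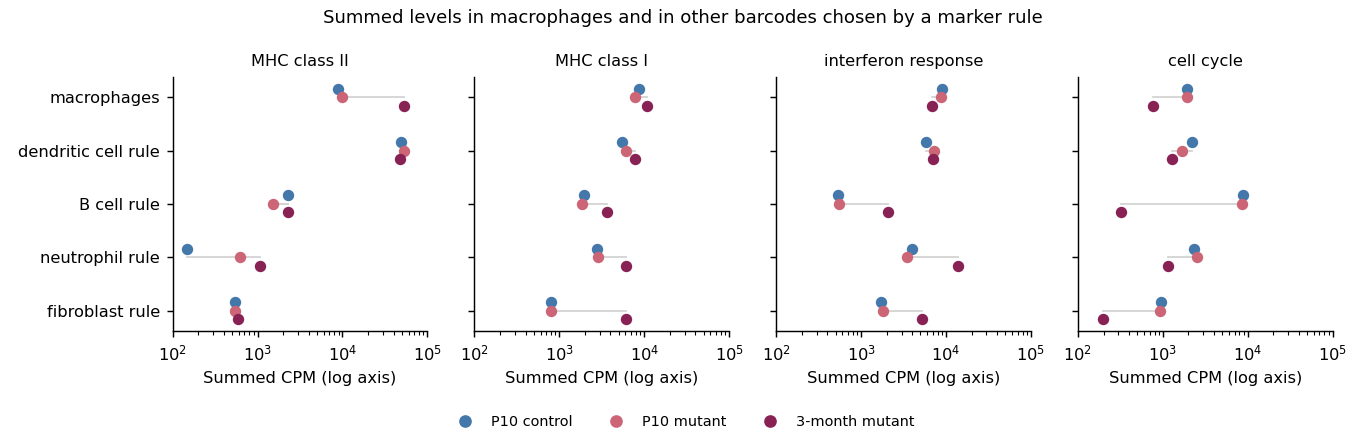
Summed level (CPM, log axis) of gene lists in macrophages and in dendritic cells, B cells, neutrophils and fibroblasts chosen by marker rules, in each of the 3 libraries. Class II in macrophages moves from 8895 and 9859 CPM at P10 to 53273 CPM at 3 months, near the 47224 CPM of dendritic cells there, while class I in fibroblasts moves from 802 to 6099 CPM between the mutants.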

How the data were processed

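The authors deposited a filtered 10x Genomics matrix of UMI counts per gene and barcode for each library, made from 3′ v3.1 chemistry after papain and collagenase dissociation and freezing. Per the file headers, both P10 libraries were counted with Cell Ranger 4.0.0 and the 3-month library with 6.0.1, on mm10. Barcodes with 200 to 9000 genes, at least 1000 UMIs and at most 10% mitochondrial UMIs were kept, and no doublet caller was run. Macrophages were chosen by the C1q rule and their counts pooled per library. Intervals are exact (Poisson, and Clopper-Pearson binomial) and cover counting error only. Coordinates are from GENCODE M21. Named genes were the members of the lists, the 10 genes per direction with the interval bound farthest from 1 (neither mitochondrial nor ribosomal, at most 50% of UMIs in 1 cell of the higher library, and there at least 2 times the level of the other barcodes), and 20 genes highest over the other barcodes. The macrophages, lists and tests were chosen with earlier results of these data known, and the class II split comparisons and the rules for other cell types after the data were seen. Python 3.11.15, numpy 2.4.6 and scipy 1.17.1 were used, and ratios were tested on simulated data.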

Additional observations from a re-analysis of the deposited data

How the results depend on the processing

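No paired analysis was possible because each group held 1 library. With 1 library a group, counts past 2-fold depended on how cells and genes were taken, and the causes were not tested. A mitochondrial limit of 5% gave macrophage shares of 7.50%, 9.34% and 15.56% in the P10 control, P10 mutant and 3-month mutant. Doubling the C1q limits gave 4.27% in the control and 10.9% at 3 months, and a minimum of 2000 UMIs gave 10.7% at 3 months. The class II-high share was 24.1% and 30.4% in the P10 control and mutant at the 5% mitochondrial limit. It was 24.4% in the control and 92.6% at 3 months with a class II limit of 0.5%, and 13.2% in the P10 mutant and 76.8% at 3 months with a limit of 2%.

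At P10 the genes past 2-fold higher numbered 56 with the stricter C1q limits, 38 without macrophages holding other cells' markers, 58 without the deepest macrophages, 169 by the mean over cells, 288 with a minimum of 20 UMIs and 11 with 200. The lower ones numbered 51 at the 5% mitochondrial limit, 19 without other cells' markers, 312 by the mean over cells, 31 within class II-high macrophages, 320 with 20 UMIs and 29 with 200. Between the mutants the higher genes numbered 510 within class II-high macrophages, 589 with 20 UMIs and 114 with 200. The lower ones numbered 842 with 20 UMIs and 116 with 200. The number of genes compared changed with the cells taken and the minimum, so these counts are not shares of the same total. Within class II-high macrophages 2843 genes were compared at P10, with 3.2% past 2-fold higher and 1.09% lower. Between the mutants 7249 were compared there, with 7.04% higher and 6.21% lower.

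The P10 chemokine ratio was 1.55, 1.54, 1.51, 1.59, 1.81 and 1.74 with, in turn, the mitochondrial limit, the C1q limits, other cells' markers left out, the deepest left out, the mean over cells and thinning, and 1.11 and 1.65 within class II-high macrophages and the others. The scavenger ratio was 0.683, 0.660, 0.854, 0.834 and 0.819 with the mitochondrial limit, the C1q limits, other cells' markers left out, the mean over cells and thinning. It was 1.01 (0.866 to 1.17) within class II-high macrophages, where its counting interval did not separate it from 1. The class II ratio between the mutants was 4.56, 6.40, 6.73, 5.86, 6.41 and 6.67 in the order of the chemokine ratio, 5.69 without the highest cell of each library, and 1.98 and 3.78 within the class II ranges. The cell cycle ratio was 0.367, 0.434, 0.445 and 0.466 with the mitochondrial limit, the C1q limits, other cells' markers left out and the deepest left out, 0.483 thinned, and 0.661 and 0.221 within the ranges. These ratios otherwise kept their side of 1. Of the values past 2-fold at P10, some passed to the other side of 1. Without other cells' markers these were the neutrophil list at 1.02 and Ccl5 at 0.907. Without the deepest macrophages it was the T and NK cell list at 1.47. At the 5% mitochondrial limit they were sustentacular and epithelial genes at 1.10 and Gm17494 at 0.769. Values not past 2-fold are not listed here, and some of them, such as MHC class II and Ccl7, also changed side. Of genes named or listed past 2-fold, 7 of 16 at P10 and 64 of 65 between the mutants remained so without macrophages holding other cells' markers.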
